A study of Mus musculus with 4 samples.

Results

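The genes described here carry interferon signals into the cell and stop them again: the receptor chains *Ifnar1*, *Ifnar2*, *Ifngr1* and *Ifngr2*, the kinases *Jak1* and *Tyk2*, the transcription factor *Stat2*, and the inhibitors *Socs1* and *Socs3*. They were matched by name, and all 9 were found among the 39186 genes of the deposited table. These genes and all lists below were chosen with earlier results of these data known, so their counts are not independent evidence. The samples were mouse LSK cells, sorted from the fetal liver as negative for lineage antigens and positive for Sca-1 and c-Kit, a fraction rich in hematopoietic stem cells. There were 2 RNA samples from *Pich*-KO and 2 from *Pich*-WT embryos of the C57BL/6 strain. *Pich*-KO embryos carried a small germline deletion in the second exon of *Pich*, present in every tissue of the embryo, and *Pich*-WT embryos carried the intact gene. No agent was given, and the labels state neither the age of the embryos nor how many livers made up a sample. The comparison asks which of these genes had other transcript levels in LSK cells without PICH, a DNA translocase found on ultrafine mitotic DNA bridges.

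Type I interferons bind the IFNAR1 and IFNAR2 chains, which carry the kinases TYK2 and JAK1, and these phosphorylate STAT2, which enters the nucleus with IRF9 and acts at the interferon-stimulated response element (ISRE). Interferon gamma binds IFNGR1 and IFNGR2, signals through JAK1 and JAK2, and acts at the gamma-activated site (GAS). SOCS1 and SOCS3 are induced by cytokines and inhibit JAK kinases or receptors, and the stem cells of the liver and marrow are known to respond to both kinds of interferon.

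Promoter sequences are shown for the STAT gene, for a SOCS gene and for a receptor gene, since these hold letters of the response elements named above. They are the 250 bases before the transcription start in RefSeq (GRCm38.p6), 5′ to 3′ on the strand of the gene, with matches to the searched letters in capitals. The window of *Stat2* lies on the plus strand at chr10:128270248-128270497, that of *Socs1* on the minus strand at chr16:10785537-10785786, and that of *Ifnar2* on the plus strand at chr16:91372533-91372782.
*Stat2*: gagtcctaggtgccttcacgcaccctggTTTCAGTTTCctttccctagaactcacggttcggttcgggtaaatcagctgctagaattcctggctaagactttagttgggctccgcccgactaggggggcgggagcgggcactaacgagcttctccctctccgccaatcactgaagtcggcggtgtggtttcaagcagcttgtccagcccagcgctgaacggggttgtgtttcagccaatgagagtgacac
*Socs1*: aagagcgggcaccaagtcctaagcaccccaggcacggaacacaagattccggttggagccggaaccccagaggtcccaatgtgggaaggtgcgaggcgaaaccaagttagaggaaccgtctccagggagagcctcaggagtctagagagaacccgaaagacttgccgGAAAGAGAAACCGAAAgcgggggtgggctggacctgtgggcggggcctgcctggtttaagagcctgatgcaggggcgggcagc
*Ifnar2*: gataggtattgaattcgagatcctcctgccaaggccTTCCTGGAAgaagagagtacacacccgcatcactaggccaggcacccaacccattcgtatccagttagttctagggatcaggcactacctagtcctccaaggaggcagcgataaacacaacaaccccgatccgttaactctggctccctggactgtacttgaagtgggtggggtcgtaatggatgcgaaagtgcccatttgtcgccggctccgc

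Both strands of each window, which also took in 50 bases after the start, were searched for GAAANNGAAA, the core of the ISRE, and for TTCNNNGAA, the GAS. The ISRE core was found in 3.44% of 32851 RefSeq windows and in 2 of the 9 genes. *Stat2* had 1 match on its minus strand, 222 to 213 bases before the start. *Socs1* had 2 matches that overlap, 83 to 74 and 77 to 68 bases before the start. The GAS letters were found in 8.3% of all windows and in 3 of the 9 genes, in *Ifnar2* at 214 to 206 bases before the start, in *Ifnar1* across the start, and in *Socs3* at 154 to 146 bases before it. Positions are counted from the RefSeq start, which for *Socs1* and *Ifnar2* is that of the gene as deposited. For *Stat2* it lies 61 bases and for *Ifnar1* 23 bases before the deposited start, and for *Jak1* 59 bases inside the gene. The RefSeq start of *Socs3* lies 681 bases inside the gene as deposited, so that its window is not the upstream region of the deposited gene and is not printed. Windows of *Ifngr1*, *Ifngr2*, *Jak1* and *Tyk2* held neither run of letters. Among the type I interferon target genes with a window, 7 of 14 held the ISRE core. A match is a run of letters and says nothing about binding in these cells.

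The values are reads counted on each gene and divided by 1 size factor per sample, called normalized read counts below. Whole reads could be recovered, and came to 14703215 to 20933919 per sample on all genes and to 122 to 8643 per sample on each of the 9 genes. The 2 samples of each group differed beyond sampling noise, and nothing in the labels says whether they came from separate embryos, so that p-values measure the spread between these samples only. *Ercc6l*, the gene of PICH, had 1142 and 1232 normalized counts in *Pich*-KO against 772 and 661 in *Pich*-WT, and since transcripts of the deleted allele are still counted, it does not check the labels. *Pich*-WT sample 2 had 0 reads on 4 Y-linked genes and 699 on *Xist*. The other 3 samples had 1607 to 2848 and 4 to 13, so sex was not balanced between the groups. The 2 *Pich*-WT samples thus came from different embryos, and for the *Pich*-KO samples this is not known. *Ly6a*, which encodes the Sca-1 antigen of the sort, was present in both groups and higher in *Pich*-KO, at 3282 ± 430 against 981 ± 113 (SD, n = 2 each). *Kit* was present at 3610 ± 1184 against 2421 ± 131 (SD, n = 2 each), with an adjusted p of 0.114 from limma. Of all 11 LSK markers listed, *Ly6a* was called higher and 3 lower, with summed counts of 20054 to 31734 in *Pich*-KO against 27455 to 28898 in *Pich*-WT and a median log2 fold change of -0.53. The 3 were the stem cell genes *Hlf* (-2.37), *Mecom* (-2.10) and *Slamf1* (-0.90), the last of which encodes CD150.

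Markers of several other cell types differed between the genotypes. All 18 macrophage markers were lower in *Pich*-KO, with summed counts of 13503 to 14878 against 86324 to 88345, and all 8 endothelial markers were lower, with 1755 to 3127 against 23170 to 33480. Lower were also 10 of 15 erythroid markers (37819 to 41053 against 145338 to 205222), 6 of 10 hepatocyte markers (2801 to 3170 against 4581 to 5106), 3 of 5 megakaryocyte markers (1023 to 1025 against 2975 to 4821) and 2 of 7 lymphoid markers (1608 to 2380 against 2242 to 2346). Of 9 neutrophil markers 3 were higher, *Mpo*, *Prtn3* and *Ctsg*, while 6 were not called. Log2 fold changes in this list ran from -0.86 to 2.73, and the middle value was 0.31. The summed counts were 64513 to 121501 against 16683 to 19389. Most of each sum came from *Mpo*, at 54647 and 90492 in *Pich*-KO against 10351 and 12533 in *Pich*-WT. The sums thus do not show a rise of the list as a whole. By the limma test described below, 7.58% of all genes tested were called higher and 9.6% lower. Among the 9481 genes with a mean at least that of *Socs1*, 22.6% and 21.7% were. The counts of lymphoid and neutrophil markers lie near these, and the summed counts of lymphoid markers overlapped between the groups. No marker of these lists was at 0 in both *Pich*-KO samples. Macrophages and endothelial cells also carry interferon receptors and JAK kinases, and the lineage antibodies of the study (CD4, CD8, Gr-1, B220 and Ter119) include none against an antigen that defines them. Ter119 in that mix would remove the erythroid cells that carry it. The part of these cells in the values below was not tested, and in bulk samples fewer cells of a type and less RNA per cell cannot be told apart.

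The genotypes were tested against each other by limma, on log2(normalized count + 1), for the 32428 genes whose mean reached 1, and a gene was called at a Benjamini-Hochberg adjusted p under 0.05. Fold changes are *Pich*-KO against *Pich*-WT on that scale, where changes of low genes come out too small. Of the 9 genes, *Stat2* was called higher, where 7.58% of all genes tested were, and 5 were called lower, where 9.6% were. The 5 were *Ifnar1*, *Ifngr1*, *Ifngr2*, *Jak1* and *Socs3*. These genes are well expressed, and among the 9481 genes with a mean at least that of *Socs1*, the lowest of the 9, 22.6% were called higher and 21.7% lower. Both *Pich*-KO samples lay below both *Pich*-WT samples in 7 of the 9 genes, against 27.2% of all genes tested, and above them in 1, against 28.9%. The median log2 fold change of the 9 genes was -0.55, and that of all genes tested was 0.02. These shares without overlap and this median include low genes. They were not taken among the 9481 genes, so whether the 9 stand apart from well-expressed genes in this was not tested.

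The calls lean on the variance pooled over genes by limma. An exact two-sided permutation test of 2 samples against 2 cannot go below p = 0.333. Leaving out any 1 of the 4 samples left 0 of the 9 genes called by limma, with 3 to 5 at an unadjusted p under 0.05, and all 9 kept their direction. When the prior variance was held at 1 value rather than following the mean, limma called 0 of the 9 and 0 of all genes, with 3 of the 9 and 7377 genes in all at an unadjusted p under 0.05. The quasi-likelihood test of edgeR, run on recovered reads, called the same 6 genes in the same directions, 1 higher against 18.6% of its 16608 genes and 5 lower against 20.7%.

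**Figure D1:**
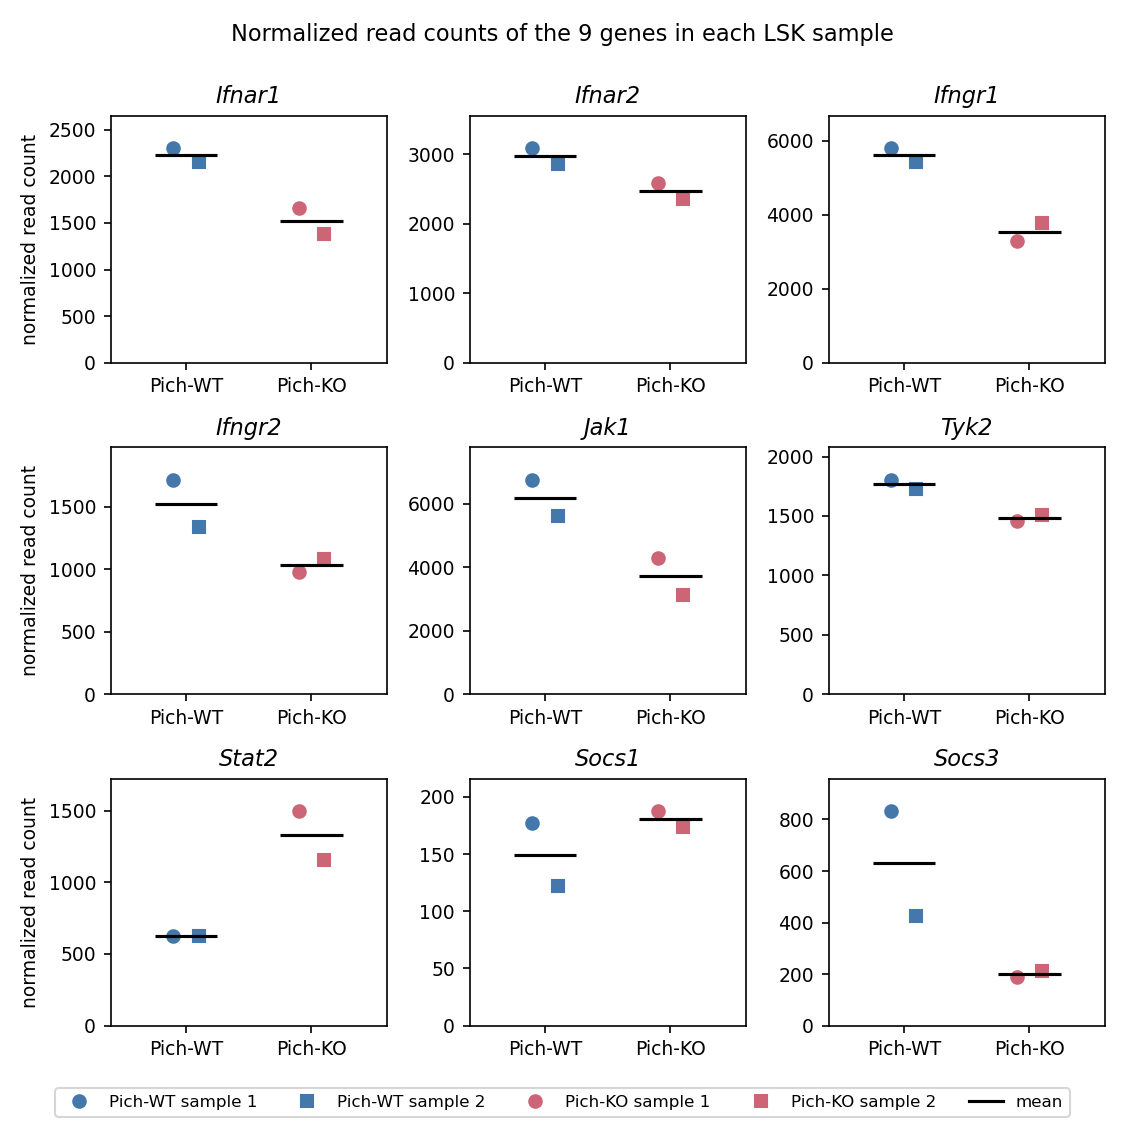
Normalized read counts (vertical axes, each from 0) of the 9 genes in each *Pich*-WT (blue) and *Pich*-KO (red) sample, with circles for sample 1, squares for sample 2 and a line at the mean of each group. Both *Pich*-KO points lie below both *Pich*-WT points in 7 panels, above them only in that of *Stat2*, and between or above them in that of *Socs1*.

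*Ifnar1* encodes the chain of the type I interferon receptor that carries TYK2. It lies on chromosome 16 from 91485238 to 91507441 on the plus strand (GRCm38, ENSMUSG00000022967). Its normalized counts were 1657 and 1382 in *Pich*-KO samples 1 and 2, and 2302 and 2156 in *Pich*-WT samples 1 and 2. Both *Pich*-KO samples were lower than both *Pich*-WT samples. The means were 1520 ± 194 and 2229 ± 103 (SD, n = 2 each), and *Ifnar1* fell by 0.56 on the log2 scale (standard error 0.13, adjusted p = 0.0185 from limma).

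*Ifnar2*, on the same chromosome from 91372783 to 91405589 (plus strand, ENSMUSG00000022971), encodes the chain that binds interferon most tightly and carries JAK1. It had 2577 and 2352 normalized counts in *Pich*-KO against 3085 and 2864 in *Pich*-WT. The *Pich*-KO samples were again the lower ones, without overlap. The log2 fold change was -0.27 (standard error 0.10, 95% interval -0.51 to -0.03), and it did not pass the test over all genes (adjusted p = 0.127 from limma). Exons of *Ifnar2* overlap those of the gene model *Gm21970* on the same strand, which was not analysed here, so reads on the shared bases are uncertain.

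Within each sample, the level of *Ifnar1* per kilobase of exon was 0.360 and 0.329 times that of *Ifnar2* in *Pich*-KO, and 0.418 and 0.422 times in *Pich*-WT. The ratio does not depend on the scaling of the samples. It was lower in both *Pich*-KO samples than in both *Pich*-WT samples, a difference that was not tested.

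*Ifngr1* encodes the chain that binds interferon gamma and is the most abundant receptor transcript of the 4. It lies on chromosome 10 from 19591949 to 19610229 on the plus strand (ENSMUSG00000020009). Its normalized counts were 3299 and 3788 in *Pich*-KO against 5800 and 5413 in *Pich*-WT. The distance between the groups was larger than the spread within them. *Ifngr1* fell by 0.66 on the log2 scale (standard error 0.10, adjusted p = 0.0031 from limma), from 5606 ± 273 to 3543 ± 345 (SD, n = 2 each).

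*Ifngr2*, which encodes the signalling chain that carries JAK2, lies on chromosome 16 from 91547072 to 91565623 on the plus strand (ENSMUSG00000022965). It had 981 and 1081 normalized counts in *Pich*-KO against 1715 and 1334 in *Pich*-WT, and the groups were apart although the *Pich*-WT samples differed widely. *Ifngr2* fell by 0.55 on the log2 scale (standard error 0.15, adjusted p = 0.0406 from limma). This call was the weakest of the 6: the adjusted p was 0.0699 with a pseudocount of 0.1 and 0.0921 without the filter on low genes. The ratio of *Ifngr1* to *Ifngr2* per kilobase was 4.45 and 4.64 in *Pich*-KO against 4.47 and 5.37 in *Pich*-WT, and here the groups overlapped.

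*Ifnar2*, *Il10rb*, *Ifnar1* and *Ifngr2* follow each other on the plus strand of chromosome 16 within 193 kb, with noncoding genes and pseudogenes but no other protein-coding gene of the deposited table between them. *Il10rb* encodes a chain shared by the receptors of interleukin-10 and interferon lambda, and it fell by 0.96 on the log2 scale, from 882 ± 95 to 450 ± 2.9 normalized counts (SD, n = 2 each, adjusted p = 0.00332 from limma). In the cluster and 250 kb on each side of it, 18 other genes were tested. Of these, *Gart* (0.92) and *Son* (0.45) were higher by the log2 fold changes given, and *Itsn1* (-2.92) and *Olig1* (-2.35, at means of 1.68 and 12.5 counts) were lower. Over all genes tested, 7.58% were called higher and 9.6% lower, so 2 higher and 2 lower of 18 lie near those shares. Among the 6 neighbours with a mean of at least 100 counts, the median log2 fold change was -0.22.

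*Jak1* encodes the kinase that serves both interferon receptors and many cytokine receptors besides. It lies on chromosome 4 from 101152367 to 101265282 on the minus strand (ENSMUSG00000028530). Its normalized counts were 4295 and 3121 in *Pich*-KO against 6755 and 5623 in *Pich*-WT. The groups did not overlap, although samples within each differed widely. *Jak1* fell by 0.75 on the log2 scale (standard error 0.16, adjusted p = 0.0135 from limma), and without the filter on low genes the adjusted p was 0.0603. An exon of *Jak1* overlaps *Raver2* on the opposite strand, and whether the counting used strand is not given in the sources used here. *Raver2* had a mean of 14.5 counts in *Pich*-KO and 68.3 in *Pich*-WT, and the part of the shared bases in the counts of *Jak1* was not tested.

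*Tyk2*, on chromosome 9 from 21104068 to 21131243 (minus strand, ENSMUSG00000032175), encodes the kinase bound to IFNAR1. It had 1457 and 1505 normalized counts in *Pich*-KO against 1805 and 1725 in *Pich*-WT. Samples within a group were close, and the groups were apart. The log2 fold change was -0.25 (standard error 0.11, 95% interval -0.51 to 0.00), which did not pass the test (adjusted p = 0.175 from limma). Exons of *Tyk2* overlap an antisense gene, *1700084C06Rik*, which was not analysed here. The ratio of *Jak1* to *Tyk2* per kilobase was 2.80 and 1.97 in *Pich*-KO against 3.55 and 3.10 in *Pich*-WT, lower in both *Pich*-KO samples.

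*Stat2* encodes the transcription factor that is particular to the type I and lambda interferon pathways, and its transcript is itself induced by interferon in many cell types. It lies on chromosome 10 from 128270559 to 128292849 on the plus strand (ENSMUSG00000040033), and its promoter is printed above. Its normalized counts were 1496 and 1158 in *Pich*-KO against 627 and 627 in *Pich*-WT. It was the only one of the 9 genes with both *Pich*-KO samples above both *Pich*-WT samples. *Stat2* rose by 1.07 on the log2 scale (standard error 0.16, 95% interval 0.71 to 1.43, adjusted p = 0.00254 from limma), from 627 ± 0.16 to 1327 ± 239 (SD, n = 2 each). The closeness of the *Pich*-WT values is that of 2 samples and gives no estimate of the spread on its own.

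Ratios of *Stat2* to genes upstream of it join its rise to their fall, so that their direction follows from the values above. The ratio of *Stat2* to *Ifnar1* per kilobase was 0.905 and 0.840 in *Pich*-KO against 0.273 and 0.292 in *Pich*-WT. The ratio of *Stat2* to *Jak1* was 0.425 and 0.453 against 0.113 and 0.136. Groups were apart in both ratios, and neither depends on how the samples were scaled.

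*Socs1* encodes the inhibitor that blocks JAK kinases after interferon. It lies on chromosome 16 from 10782240 to 10785536 on the minus strand (ENSMUSG00000038037), far from the receptor cluster. Its normalized counts were 188 and 174 in *Pich*-KO against 177 and 122 in *Pich*-WT. The groups overlapped, and *Pich*-WT sample 1 lay between the *Pich*-KO samples. The log2 fold change of 0.29 did not pass the test (standard error 0.25, 95% interval -0.28 to 0.87, adjusted p = 0.508 from limma), with an interval on both sides of 0. It was 0.56 without *Pich*-WT sample 1 and 0.03 without *Pich*-WT sample 2, and neither passed. Of the 2 genes whose window holds the ISRE core, *Stat2* was thus called and *Socs1* was not, and the difference between their changes was not tested.

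*Socs3* encodes an inhibitor that acts at the receptors of the interleukin-6 family and of G-CSF, and is a target of STAT3. It lies on chromosome 11 from 117966079 to 117970047 on the minus strand (ENSMUSG00000053113). Its normalized counts were 188 and 211 in *Pich*-KO against 832 and 427 in *Pich*-WT. The *Pich*-KO samples were close together and far below the *Pich*-WT samples, which differed widely between themselves. *Socs3* fell by 1.58 on the log2 scale (standard error 0.30, 95% interval -2.26 to -0.89, adjusted p = 0.00826 from limma), the largest fold change of the 9 genes in either direction. The log2 fold change was -1.10 without *Pich*-WT sample 1 and -2.06 without *Pich*-WT sample 2, and neither fit called it. Per kilobase, *Socs3* stood at 4.72 and 3.52 times *Socs1* in *Pich*-WT and at 1.01 and 1.22 times in *Pich*-KO.

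**Figure D2:**
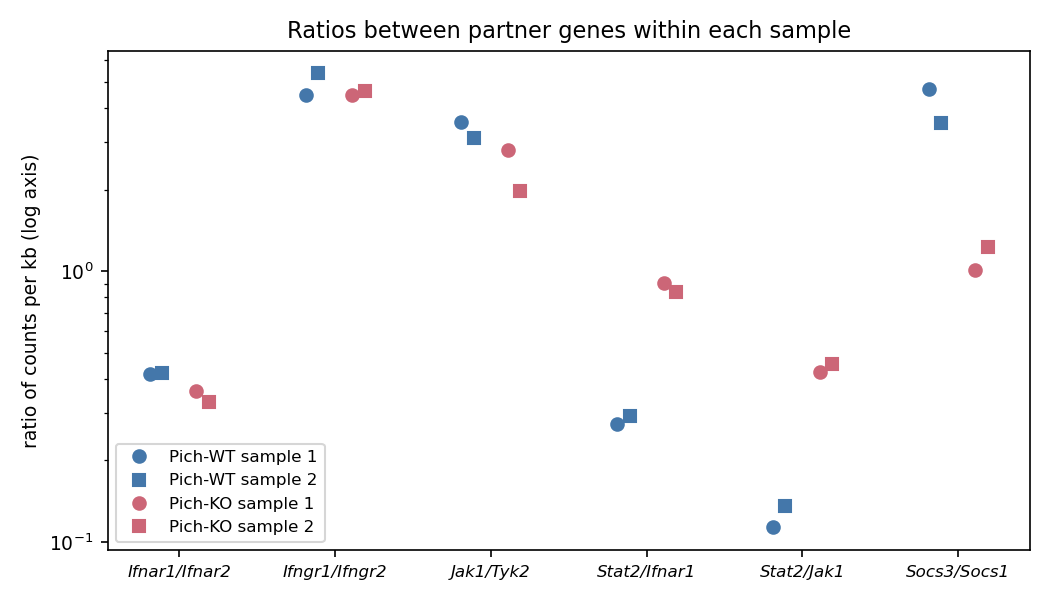
Ratios of normalized counts per kilobase of exon between partner genes (log axis), 1 point per *Pich*-WT (blue) and *Pich*-KO (red) sample. Groups are apart in every ratio shown except that of *Ifngr1* to *Ifngr2*. *Stat2* stands at 0.840 to 0.905 of *Ifnar1* in *Pich*-KO and at 0.273 to 0.292 in *Pich*-WT.

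Per kilobase of exon, on which levels of different genes can be compared, *Ifngr1* was the highest of the 9 in both groups, at 1969 ± 96.0 in *Pich*-WT and 1245 ± 121 in *Pich*-KO (SD, n = 2 each). In *Pich*-WT it was followed by *Ifnar2* (894) and *Jak1* (856), which overlapped, then *Ifngr2* (405) and *Ifnar1* (375), which overlapped, *Tyk2* (257) and *Socs3* (218), which overlapped, *Stat2* (106) and *Socs1* (51.5). In *Pich*-KO *Ifnar2* (740) lay above *Jak1* (513) in both samples. *Ifngr2* (274), *Ifnar1* (256), *Stat2* (224) and *Tyk2* (216) followed, each overlapping the next, and *Socs3* (69.0) and *Socs1* (62.2) came last. *Stat2* thus moved from below *Tyk2* to its level, and *Socs3* from the level of *Tyk2* to near that of *Socs1*. Among protein-coding genes in *Pich*-WT, the level per kilobase of *Ifngr1* lay at percentile 97.8 and that of *Socs1* at percentile 57.0.

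**Figure D3:**
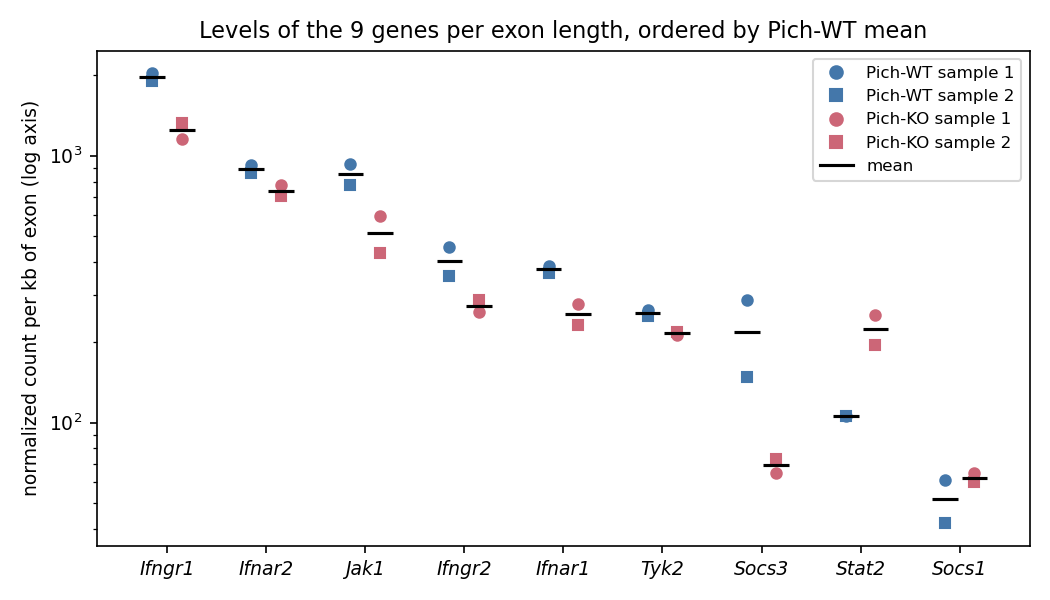
Normalized counts per kilobase of exon (log axis) of the 9 genes in order of the *Pich*-WT mean, with *Pich*-WT in blue, *Pich*-KO in red, circles for sample 1, squares for sample 2 and a line at each mean. *Ifngr1* is the highest in both groups, while *Stat2* and *Socs3* change place in the order.

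Of 27 further JAK-STAT genes, 4 were called higher and 6 lower in *Pich*-KO, with a median log2 fold change of -0.05. Over all genes tested, 7.58% were called higher and 9.6% lower. Among the 9481 genes at least as abundant as *Socs1*, these shares were 22.6% and 21.7%. The counts do not set the list apart from such well-expressed genes. *Irf9*, the DNA-binding partner of STAT2, had 1634 and 1862 normalized counts in *Pich*-KO against 1035 and 1039 in *Pich*-WT, and rose by 0.75 on the log2 scale (standard error 0.12, adjusted p = 0.00433 from limma). *Stat2* and *Irf9* were thus both higher, with no overlap between groups.

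*Jak2*, the kinase of IFNGR2 and of the erythropoietin and thrombopoietin receptors, had 234 and 160 normalized counts in *Pich*-KO against 1314 and 887 in *Pich*-WT. It fell by 2.47 on the log2 scale (standard error 0.25, adjusted p = 0.000459 from limma). Both kinases of the interferon gamma receptor were thus called lower. *Jak3*, the kinase of the common gamma chain, fell by 0.37 (adjusted p = 0.0373 from limma). *Stat3* was at 3462 ± 405 against 3560 ± 50.7 (SD, n = 2 each), with overlap and a log2 fold change of -0.04 (95% interval -0.29 to 0.20, adjusted p = 0.842 from limma). Among the genes tested in this pathway, the kinase transcripts were thus lower or not called while those of *Stat2* and *Irf9* were higher. Like *Stat3*, the genes *Stat4* (-0.64), *Stat5a* (0.19), *Stat5b* (0.12) and *Stat6* (-0.05) were not called, by the log2 fold changes given.

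Other regulators of the pathway went in both directions. *Usp18*, the protease that displaces JAK1 from IFNAR2 and is a type I interferon target, had 6690 and 3071 normalized counts in *Pich*-KO against 230 and 245 in *Pich*-WT, and rose by 4.25 on the log2 scale (standard error 0.31, adjusted p = 0.000113 from limma). The phosphatases *Ptpn11* and *Ptpn2* rose by 1.04 and 0.48 (adjusted p = 0.00133 and 0.022 from limma), whereas *Ptpn6* had a log2 fold change of 0.22 that did not pass (adjusted p = 0.137 from limma). *Socs2* and *Socs5* fell by 1.59 and 1.74 (adjusted p = 0.00836 and 0.00249 from limma), and *Pias3*, an inhibitor of STAT3, fell by 1.37 (adjusted p = 0.00346 from limma). *Cish*, a STAT5 target of the SOCS family, had a log2 fold change of -1.0 that did not pass (95% interval -1.70 to -0.30, adjusted p = 0.0612 from limma). Called SOCS genes, *Socs3* included, were thus all lower, while *Usp18* was higher. SOCS genes that were not called had log2 fold changes of both signs.

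**Figure D4:**
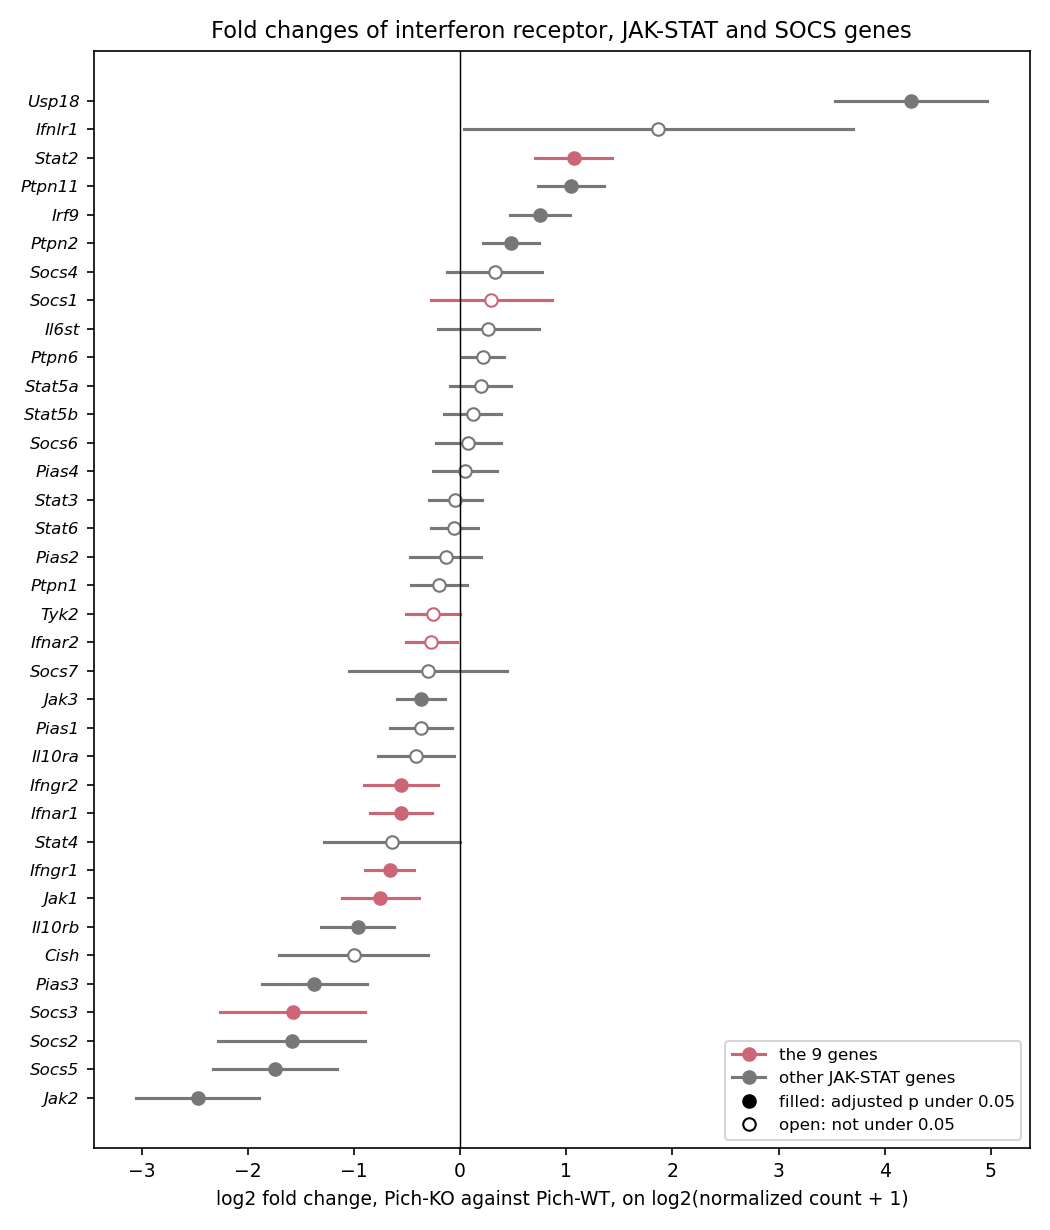
Log2 fold changes, *Pich*-KO against *Pich*-WT, of the 9 genes (red) and the 27 further JAK-STAT genes (grey), with 95% intervals from limma as bars, filled where the adjusted p was under 0.05. *Usp18* (4.25) is at the top and *Jak2* (-2.47) at the bottom, and 5 of the 6 called red points lie left of 0.

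The transcripts of the ligands were rare. Over 11 *Ifna* genes, 91 and 52 reads were counted in *Pich*-KO against 3 and 6 in *Pich*-WT. *Ifna1* had 32 and 9 reads against 1 and 0, *Ifna2* 26 and 6 against 0 and 0, and *Ifna4* 8 and 12 against 1 and 0, and these 3 were called higher by limma. edgeR and DESeq2 could test only 2 ligand genes, *Ifnb1* and *Ifng*, and called 0 higher, with 1 (edgeR) and 0 (DESeq2) higher at an unadjusted p under 0.05. *Ifnb1* had 21 and 12 reads against 8 and 5, a log2 fold change of 1.5 that did not pass (adjusted p = 0.112 from limma). *Ifng* had 14 and 8 reads against 74 and 101 and fell by 2.60 on the log2 scale (standard error 0.45, adjusted p = 0.00557 from limma). Reads of ligands may come from any cell of the sample.

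Downstream, all 20 type I interferon targets of a list were called higher in *Pich*-KO, where 7.58% of all genes tested were. Their median log2 fold change was 2.57. The list was chosen with these genes known to be higher in these samples, so that its direction is not independent evidence. *Ifi44* (4.21) and *Isg15* (4.0), the ubiquitin-like modifier, had the largest log2 fold changes, and *Ifit2* (1.28) and *Rtp4* (1.83) the smallest. The smallest of these was above the 1.07 of *Stat2*, a comparison that the choice of the list also shapes.

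Targets of interferon gamma went both ways, with 5 of 20 called higher, 6 lower and a median log2 fold change of 0.02. Of all genes tested, 7.58% were called higher and 9.6% lower. Among the 9481 genes at least as abundant as *Socs1*, 22.6% and 21.7% were, and the counts lie near these. *Irgm1* (4.08) and *Gbp5* (1.41), GTPases of cell-intrinsic immunity that type I interferons also induce, had the largest log2 fold changes of those called. *H2-Aa* (-7.70) and *Cd74* (-5.96), which serve antigen presentation on MHC class II in macrophages, dendritic cells and B cells, had the smallest. *H2-Aa* was at 28.4 and 12.5 normalized counts in *Pich*-KO against 4880 and 3511 in *Pich*-WT, beside the fall of all 18 macrophage markers, whose part in this was not tested.

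Of 12 STAT3 targets, *Nfil3* was called higher (0.92) and 5 were lower, with a median of -0.34. *Cebpb* (-3.31), a myeloid transcription factor, and *Mcl1* (-2.80), a survival factor of stem cells, had the smallest log2 fold changes, and *Zfp36*, an mRNA decay factor, fell by 0.57. *Socs3*, itself a target of STAT3, was lower while *Stat3* was not called. Of 8 STAT5 targets 0 were called higher and 2 lower by limma (1 higher and 3 lower at an unadjusted p under 0.05), *Socs2* and *Bcl2l1* (-0.92), an inhibitor of apoptosis, with a median of -0.11. edgeR tested 7 of these 8 and called 1 higher and 3 lower, against 18.6% and 20.7% of its 16608 genes. The limma counts of both lists stand beside 7.58% of all genes called higher and 9.6% lower. Among genes at least as abundant as *Socs1*, 22.6% and 21.7% were.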

How the data were processed

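RNA of sorted LSK cells was measured by RNA sequencing in 2 *Pich*-KO and 2 *Pich*-WT samples. The values deposited by the authors are a signal made from reads counted per gene, divided by 1 size factor per sample. Whole reads were recovered for 100% of values (tolerance 0.01 read), and the factors equal the median-ratio factors of DESeq2. The table's columns of the authors' own comparison (fold changes and p-values) were not used. All sample columns were mapped to samples by their names. The submitters' processing notes list Bowtie 0.12.2, mm8 and mm9. However, 97.83% of 39131 genes matched in GENCODE M21 had the same coordinates, so GRCm38 is given. The counter and its use of strand are not given in the sources used here.

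The count test planned for raw counts was replaced by limma on log2(value + 1), with a variance trend, genes with a mean of at least 1 and Benjamini-Hochberg adjustment, since the deposited values are normalized. Levels per kilobase used the deposited gene lengths. The 9 genes and all lists were chosen with earlier results of these data known. Named are all 9 genes, called JAK-STAT genes with fixed partners, the 2 largest and 2 smallest called changes of each other list, and called neighbours of the receptor cluster. Ligands *Ifna12*, *Ifna14*, *Ifnab* and *Ifne* were not analysed here. The values of 1 further gene are not reported here.

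Alternatives were a pseudocount of 0.1, no filter, at least 10 reads in every sample, a replicate block, no variance trend, edgeR with TMM or upper-quartile scaling, DESeq2, and leaving out each sample. Promoter windows came from RefSeq and matched 9 of 9 genes. R 4.3.3 was used with edgeR 4.0.16, DESeq2 1.42.0 and limma 3.58.1.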

Additional observations from a re-analysis of the deposited data

How the results depend on the processing

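None of the 9 genes changed direction under any alternative. Of the 5 called lower, 4 were called when the pseudocount was 0.1, and 3 when low genes were kept. With low genes kept, 3 interferon gamma targets were called higher. Requiring 10 reads in every sample left 0 ligands called higher and 0 lower, as none of them reached it and 0 were tested. With the replicate block, 5 ligands and 2 STAT5 targets were called higher, and the called genes among the 9 were the same. Deviations of samples with the same number were hardly correlated (0.0133 over 10544 genes). With 1 such pair of deviations, this cannot show whether the numbers stand for a pairing. The block fit called 6996 genes in all, against 5572 in the main fit. edgeR with either scaling and DESeq2, which tested 2 ligands, called 0 ligands and 1 STAT5 target higher. Without the variance trend, limma called 0 genes in every list and direction, with 7377 genes at an unadjusted p under 0.05.

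Leaving out each sample in turn gave 0 called in either direction among the 9 genes, the ligands and the STAT5 targets. The ranges were 0 to 2 for JAK-STAT genes higher and for those lower, 0 to 16 for type I targets higher, 0 for gamma targets higher, 0 to 6 for those lower, 0 for STAT3 targets higher and 0 to 2 for those lower. Calls remained only without *Pich*-KO sample 1, with 1741 genes in all. The lone sample of a group was then assumed to vary like those of the other group. With 2 samples per group, differences of the size seen for *Ifnar2*, *Tyk2* and *Socs1* could not be called or excluded.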
